A study of Mus musculus with 4 samples.

Results

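Cluster 82, named 82:Tal1/Nell1 in the deposited annotation, is a cluster of inhibitory neurons of the mouse hindbrain. Its members are the nuclei that the annotation places in that cluster and that passed the authors' quality filter. They numbered 113 of 39461 nuclei, among 12539 neurons (0.901%). The reference for every comparison of levels was the other 12426 neurons. The 4 libraries came from the part of the hindbrain with the area postrema and the nucleus of the solitary tract, sites where signals on feeding reach the brainstem. Control mice are labelled WT, and per the Methods control mice of the study carried the hM3DGq and hM4DGi alleles without a recombinase. AgRP-Gq;POMC-Gi mice are labelled AgRP-IRES-Cre+/-;hM3DGqfl/-;POMC-Dre+/-;hM4DGifl/-, so that Cre in AgRP neurons switched on the activating receptor hM3DGq and Dre in POMC neurons the inhibiting receptor hM4DGi. All mice of both groups, on a C57BL/6 background and per the Methods 12 to 20 weeks old, received CNO, the ligand of these receptors, and the tissue was taken without food 1 h later. The Methods give a CNO dose of 3 mg per kg for the experiments in general and do not restate it for the sequencing. The receptors sit in AgRP and POMC neurons and no receptor allele is directed at neurons of cluster 82. Each group had 2 libraries. The Methods state that mice of a condition were pooled, with 2 mice per group, without saying which mice entered which library. The paper states that both male and female mice were used for the sequencing. The AgRP-Gq;POMC-Gi libraries differed in *Xist* (below), so they held different animals. For the control libraries the labels do not say so, and their spread may be technical.

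*Tal1* (also called Scl) encodes a helix-loop-helix transcription factor that works in a complex with Gata factors and Lmo adaptor proteins. In the developing spinal cord and hindbrain, *Tal1*, *Gata2* and *Gata3* mark ventral progenitors that become inhibitory neurons, and the same 3 factors act in blood and endothelial cells. Inhibitory neurons make GABA with the enzymes encoded by *Gad1* and *Gad2*, take up glycine with the transporter encoded by *Slc6a5*, and load both into vesicles with the transporter encoded by *Slc32a1*. Neurons that contact the cerebrospinal fluid around the central canal are a further population known to keep *Gata2* and *Gata3*, and their defining gene is *Pkd2l1*, a channel of the polycystin family.

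The cluster was present in every library. Control replicate 1 held 45 of its nuclei (1.82% of that library's neurons, exact 95% interval 1.33 to 2.43) and control replicate 2 held 16 (0.585%, 0.335 to 0.948). AgRP-Gq;POMC-Gi replicate 1 held 17 (0.460%, 0.268 to 0.735) and AgRP-Gq;POMC-Gi replicate 2 held 35 (0.962%, 0.671 to 1.34). The groups overlapped, since control replicate 2 lay between both AgRP-Gq;POMC-Gi libraries. The mean share differed by -0.49 percentage points (exact two-sided permutation test, p = 0.667, where 2 against 2 libraries allow no p below 0.333), and without control replicate 1 the difference was 0.126 points. These nuclei summed to 437965, 190695, 149392 and 307342 UMIs (unique molecular identifiers, each standing for a captured transcript) in the 4 libraries. The median nucleus had 8968 UMIs, close to the 8702.5 of other neurons. Levels below are counts per 1e6 UMIs (CPM) of the summed nuclei of a library, given as mean ± SD of the 4 libraries, and CPM of a 3′ library are not divided by transcript length. Library composition differed in 2 ways that touch later results. *Ttr*, a choroid plexus transcript, had 1, 169, 1 and 206 UMIs in the cluster and ranged from 2.28 to 886 CPM. The summed ependymal and choroid markers ranged likewise in other neurons (6.81 to 1012 CPM). Both were low in replicate 1 and high in replicate 2 of each group. *Xist*, transcribed in female cells, had 132, 30, 89 and 0 UMIs in the same order. Of 44303 barcodes in the matrices, all matched the deposited table, and 1 nucleus of cluster 82 had a barcode sequence that also occurred in another library.

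The markers in the cluster's name were present, and among genes seen in at least 25% of the nuclei *Tal1* had the highest ratio to other neurons. Control replicates 1 and 2 had 20 and 8 UMIs of *Tal1*, and AgRP-Gq;POMC-Gi replicates 1 and 2 had 6 and 15, the order used for all counts that follow. This is 44.1 ± 3.86 CPM against 0.821 CPM in other neurons, a 53.8-fold ratio with little spread between libraries. *Gata3* had 12, 8, 6 and 17 UMIs, or 41.2 ± 11.4 CPM against 1.54 CPM. *Nell1*, which encodes a secreted protein with EGF-like repeats, had 227, 130, 132 and 192 UMIs, or 677 ± 153 CPM against 225 CPM. *Tal1* UMIs were seen in 36.3% of the nuclei, against 0.660% of other neurons. With every nucleus thinned to 2000 UMIs (112 of 113 nuclei and 12261 of 12426 other neurons were deep enough), 10.2% still had a *Tal1* UMI against 0.153%. In oligodendrocytes, which should lack it, the share was 0.0416% at a median of 2460 UMIs, so the signal in cluster 82 was above this background. Outside neurons, *Tal1* was found in 10.3% of endothelial nuclei and 12.6% of nuclei of the Tmem119 immune type. A count of 61 nuclei (54.0%) had a UMI of *Tal1*, *Gata2* or *Gata3*, against 1.64% of other neurons.

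The 250 bases upstream of the first RefSeq start of the factors that name the lineage, and of *Pkd1l2* and *Slc6a5*, whose levels divide the cluster below, are printed in 5′ to 3′ direction of the gene from GRCm38.p6. *Tal1* lies at chr4:115056426-115071755 on the forward strand and its window is chr4:115056176-115056425. *Gata3* (chr2:9857078-9890034, reverse strand) has the window chr2:9878601-9878850, which lies inside the gene by this annotation, since the RefSeq start used is a later one. *Pkd1l2* (chr8:116995679-117082449, reverse strand) has the window chr8:117082450-117082699. *Slc6a5* (chr7:49910146-49963856, forward strand) has the window chr7:49910049-49910298. By this annotation the gene starts within that window, so its bases from 49910146 on lie inside the gene. Among windows searched but not printed, those of *Nell1* and *Gad1* also lie inside their annotated genes, and that of *Gad2* overlaps the gene's first bases. Capitals mark matches to AGATAA, the form AGATAG, the form TGATAA or the form TGATAG on either strand, the letters that Gata factors are known to bind.
Tal1: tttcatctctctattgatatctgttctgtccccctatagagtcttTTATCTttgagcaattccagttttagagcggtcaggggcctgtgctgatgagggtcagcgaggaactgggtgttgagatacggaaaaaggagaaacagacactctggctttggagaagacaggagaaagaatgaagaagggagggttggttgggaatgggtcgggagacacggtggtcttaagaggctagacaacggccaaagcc
Gata3: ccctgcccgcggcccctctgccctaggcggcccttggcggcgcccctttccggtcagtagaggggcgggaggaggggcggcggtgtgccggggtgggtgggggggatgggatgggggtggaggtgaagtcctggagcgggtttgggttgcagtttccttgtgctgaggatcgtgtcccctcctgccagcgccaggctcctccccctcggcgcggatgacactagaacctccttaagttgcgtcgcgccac
Pkd1l2: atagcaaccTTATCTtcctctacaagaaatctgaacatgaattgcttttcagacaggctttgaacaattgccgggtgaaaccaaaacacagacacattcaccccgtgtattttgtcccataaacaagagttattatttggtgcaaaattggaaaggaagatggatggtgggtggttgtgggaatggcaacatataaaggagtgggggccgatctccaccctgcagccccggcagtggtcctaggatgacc
Slc6a5: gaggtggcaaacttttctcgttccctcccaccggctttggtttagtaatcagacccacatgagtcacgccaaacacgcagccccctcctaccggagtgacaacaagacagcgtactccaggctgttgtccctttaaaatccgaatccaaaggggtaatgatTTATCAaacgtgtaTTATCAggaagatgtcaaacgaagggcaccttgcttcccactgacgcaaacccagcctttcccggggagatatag
The windows of *Tal1* and *Pkd1l2* each hold 1 match, in reverse orientation, at -205 to -200 and -241 to -236 from the start. That of *Slc6a5* holds 2, at -89 to -84 and -75 to -70 from the RefSeq start used, both inside the annotated gene. The *Slc32a1* window holds 1 match, at -157 to -152, and those of *Gata2*, *Gata3*, *Nell1*, *Gad1* and *Gad2* hold none. Such a match is common, as 26.5% of the 32851 RefSeq windows of this length hold at least 1.

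Against other neurons, 17 genes had a mean level at least 4-fold higher among the 5496 genes seen in at least 25% of the nuclei (0.309%). Because clusters are built from expression, these ratios describe the cluster and were not tested. The leading genes of these 17 were *Tal1*, the noncoding *Sox1ot* (50.1 ± 15.8 against 1.17 CPM) and *Sox2ot* (375 ± 184 against 13.2 CPM), *Gata3*, and *Pax6* (42.5 ± 18.4 against 3.66 CPM), a homeodomain factor of neural progenitors. *St18*, a zinc finger factor, stood at 152 ± 42.0 CPM against 19.4 CPM. *Cdh23*, a cadherin known from the tip links of hair cells, stood at 112 ± 74.0 CPM against 17.1 CPM. *Zfpm2* (also called Fog2), a cofactor that binds Gata proteins, had the highest level of the group. Its 588, 212, 228 and 302 UMIs gave 1241 ± 242 CPM against 214 CPM, and 91.2% of the nuclei had a UMI. Imprinted genes among the 17 were *Dlk1*, a membrane protein related to Notch ligands (92.3 ± 29.4 against 15.4 CPM), and *Gnasas1*, the antisense transcript at *Gnas* (96.9 ± 20.5 against 17.8 CPM). *Gnas* itself was 1.45-fold above other neurons, and the library strand setting was not given in the sources used here, so reads of *Gnas* and *Gnasas1* may not be fully separate.

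**Figure D1:**
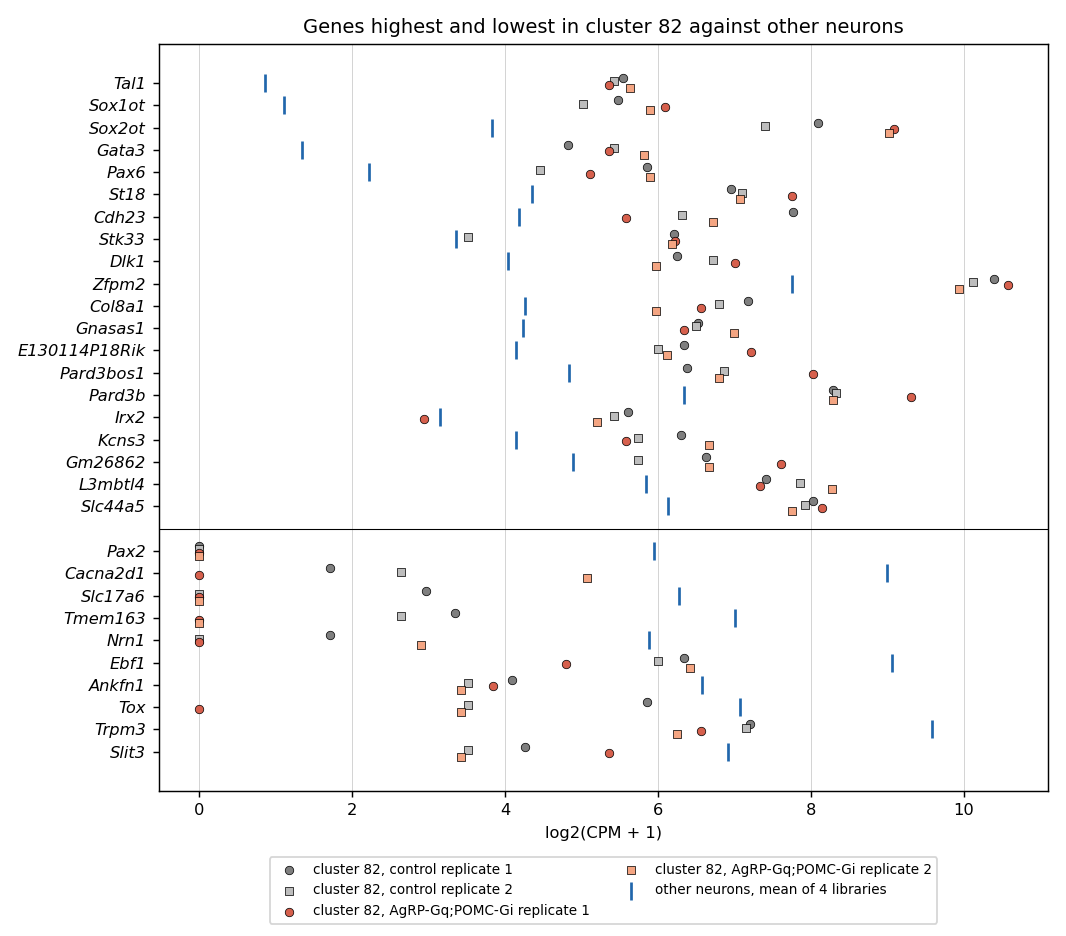
Levels of the 20 genes with the highest and the 10 with the lowest ratio to other neurons, as log2(CPM + 1); each point is a library and each blue bar the mean of other neurons. All 4 libraries lie above other neurons for *Tal1*, *Gata3* and *Zfpm2*, whereas AgRP-Gq;POMC-Gi replicate 1 lies below them for *Irx2* (1 UMI).

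The 10 genes with the lowest ratio to other neurons held a few factors and several channel, transporter and membrane protein genes. *Pax2*, a factor of dorsal inhibitory neurons, had 0 UMIs in the 4 libraries against 60.9 CPM in other neurons, where 26.7% of nuclei had a UMI. *Cacna2d1*, a calcium channel subunit bound by gabapentin, was at 10.0 ± 15.2 CPM against 511 CPM, and its UMIs numbered 1, 1, 0 and 10. *Ebf1* was at 63.6 ± 26.2 CPM against 533 CPM. *Trpm3*, a cation channel, was at 114 ± 35.3 CPM against 768 CPM in other neurons. Of 17 listed factors of other inhibitory lineages, 12 had no UMI in the cluster, and of 18 factors of excitatory lineages, 14 had none. Over all genes, 14499 of 32285 had none.

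Gene lists ordered by role gave the rest of the profile. Over all genes with at least 20 UMIs in the cluster, 101 of 8068 (1.25%) were at least 2-fold above other neurons and 55 (0.682%) at least 2-fold below. Of the factors of the Tal1 and Gata lineage and their complex, 10 of 19 reached 20 UMIs, of which 4 were at least 2-fold above and 1 below. The 4 were *Tal1*, *Gata3*, *Zfpm2* and *Lmo1*, an adaptor protein with 30.0 ± 6.83 CPM against 6.13 CPM. *Ldb2*, which encodes a protein that bridges such adaptors, was the 1 below (63.7 ± 24.5 against 181 CPM). *Gata2* reached 18 UMIs in all (5, 4, 4 and 5), or 18.9 ± 6.56 CPM against 0.700 CPM. *Sox14* had 11, 0, 0 and 1 UMIs in 9 nuclei, nearly all of them in control replicate 1. Of 24 Hox and position factors 5 reached 20 UMIs (*Hoxa3*, *Hoxb3*, *Hoxb4*, *Hoxc4* and *Hoxd3*), and 0 of these were 2-fold above or below. *Hoxb3* stood at 51.8 ± 9.93 CPM against 49.5 CPM.

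GABA and glycine genes marked the cluster as inhibitory with both transmitters. Of the 7 genes of this list with 20 UMIs, 3 were at least 2-fold above other neurons and 0 below. *Gad2* stood at 269 ± 23.0 CPM against 93.7 CPM, *Gad1* at 106 ± 19.7 CPM against 50.1 CPM and *Slc32a1* at 61.9 ± 35.4 CPM against 26.9 CPM. *Slc6a5* had 73, 17, 17 and 42 UMIs, or 127 ± 33.0 CPM against 82.7 CPM, in 54.0% of the nuclei. *Slc17a6*, the glutamate transporter of excitatory hindbrain neurons, had 3 UMIs, all in control replicate 1. Counted per nucleus, 56 nuclei (49.6%) had UMIs of *Slc6a5* and of *Gad1* or *Gad2*, 47 (41.6%) of *Gad1* or *Gad2* only, 5 (4.42%) of *Slc6a5* only and 5 of none. In oligodendrocytes 1.39% of nuclei had an *Slc6a5* UMI. Of 30 neuropeptide genes, 19 had a UMI and 2 reached 20 UMIs, of which *Sst* (28.3 ± 3.97 against 30.2 CPM) was close to other neurons.

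Receptors and channels differed less. Of 16 receptor genes for GABA and glycine with 20 UMIs, 0 were 2-fold above or below. Of 21 glutamate receptor genes, *Grin2a*, an NMDA receptor subunit, was 2-fold below (228 ± 36.8 against 528 CPM). Next lowest was *Grm7*, a presynaptic metabotropic receptor, at 966 ± 40.3 CPM against 1823 CPM. Of 35 ion channel genes, 2 were 2-fold above and 1 below. *Kcnmb2*, a subunit of calcium-activated potassium channels, stood at 407 ± 130 CPM against 170 CPM. *Kcnh7*, a potassium channel of the Erg family, had 421, 193, 378 and 401 UMIs, or 1452 ± 735 CPM against 707 CPM. *Kcnq5* was at 266 ± 52.7 CPM against 534 CPM. Of the receptors for feeding signals 6 of 27 reached 20 UMIs, and 0 were 2-fold above or below. *Oprm1*, the mu opioid receptor, was at 109 ± 33.2 CPM against 106 CPM, the insulin receptor gene *Insr* at 125 ± 13 CPM against 124 CPM, and the serotonin receptor gene *Htr2c* at 399 ± 54.7 CPM against 738 CPM. In the Nell family and its partners, *Nell1* was above, and *Nell2* was below (49.8 ± 25.2 against 125 CPM). All 8 pan-neuronal genes were within 2-fold of other neurons, and the summed oligodendrocyte markers were as low as in other neurons, against 12549 to 13016 CPM in oligodendrocytes. These markers moved with the group. In cluster 82 they summed to 258 and 315 CPM in the control and 174 and 153 CPM in the AgRP-Gq;POMC-Gi replicates, and in other neurons to 304, 259, 151 and 195 CPM in the same order.

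Cluster 82 was set beside the neuronal clusters most like it by the correlation of centred log levels over 12115 genes, given as a description. Of 134 neuronal clusters, the closest was 128:Cntn5/Nell1 (r = 0.279, 67 nuclei), followed by 67:Foxp2/Il1rapl2 (r = 0.275, 132 nuclei) and 103:Gata3/Crhbp (r = 0.259, 94 nuclei). The first 2 shared *Nell1* and the inhibitory genes but not the factors, with *Tal1* at 0 CPM and 1.45 ± 2.90 CPM and *Gata3* at 0 and 2.17 ± 4.34 CPM. Cluster 103 had the factors at 31.3 ± 13.7 CPM of *Tal1* and 70.1 ± 11.5 CPM of *Gata3*. Cluster 152:Foxp2/Gata3 (r = 0.202, 54 nuclei) had 49.9 ± 25.9 CPM of *Tal1*, within its spread of cluster 82, and had *Foxp2*, a forkhead factor in its name, at 1124 ± 402 CPM against 33.9 ± 40.2 CPM in cluster 82. *Zfpm2* was at 213 to 435 CPM in these 4 clusters, below cluster 82. *Pkd2l1* was at 0 CPM in all 4 of them.

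**Figure D2:**
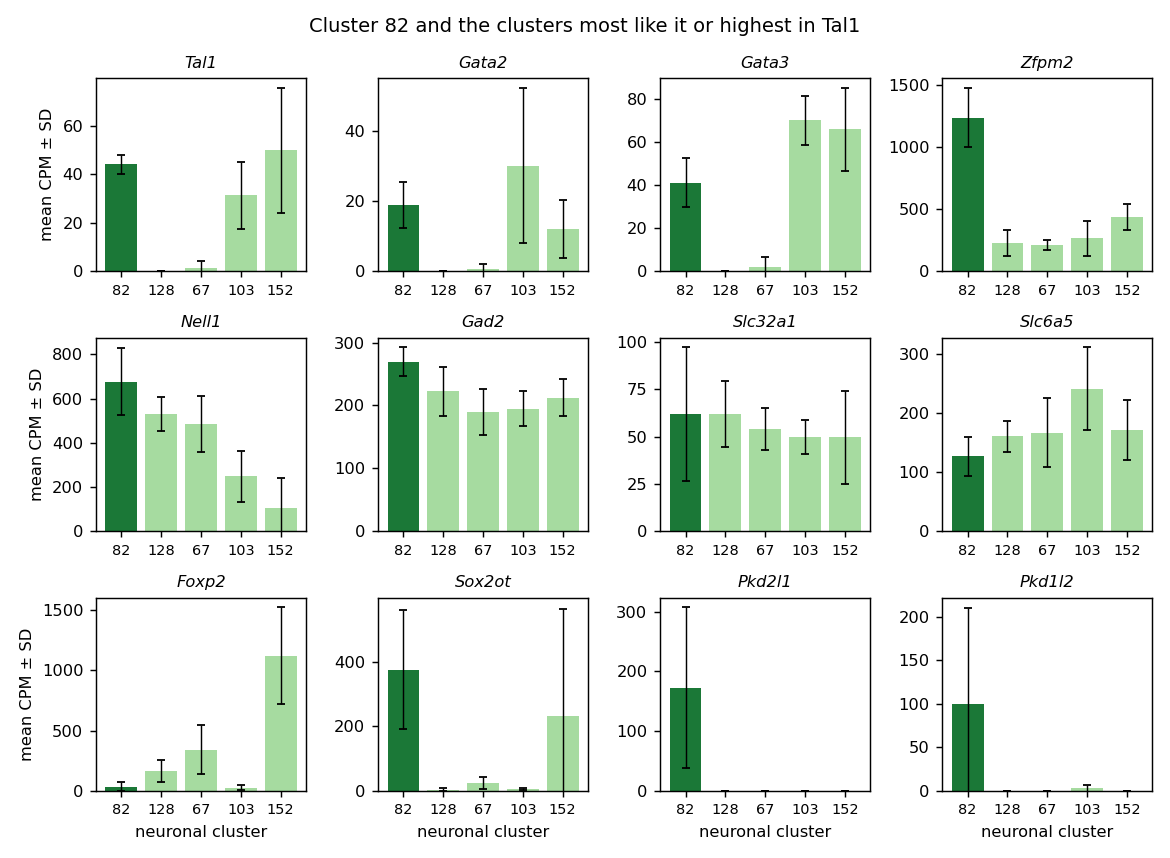
Mean CPM of 12 genes in cluster 82 (dark) and in 4 other neuronal clusters (light), with the SD of 4 libraries as error bars. *Tal1* and *Gata3* are shared with clusters 103 and 152, *Nell1* with clusters 128 and 67, and *Pkd2l1* is at 172.8 ± 135 CPM in cluster 82 and at 0 in the other 4.

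*Pkd2l1* and its relative *Pkd1l2* were far above other neurons in the cluster and came from a minority of its nuclei. *Pkd2l1* (chr19:44147637-44192442, reverse strand) had 27, 11, 49 and 75 UMIs, or 172.8 ± 135 CPM against 0.558 CPM in other neurons. *Pkd1l2* had 2, 7, 38 and 32 UMIs, or 99.9 ± 111 CPM against 1.04 CPM. *Espn*, which encodes an actin-bundling protein of microvilli and stereocilia, had 6, 6, 15 and 14 UMIs, or 47.8 ± 37.4 CPM against 3.46 CPM. Of 12 listed genes of cerebrospinal fluid-contacting neurons, 10 had a UMI in the cluster and 4 reached 20 UMIs, and these 3 were 2-fold above. The fourth was *Dcx*, a microtubule protein of young neurons, at 103 ± 8.07 CPM against 86.1 CPM. The next highest neuronal cluster in *Pkd2l1* was 159:Casr/Slc6a2 with 15.6 CPM, from 1 nucleus, and cluster 82 held 71.4% of all neuronal *Pkd2l1* UMIs.

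A UMI of *Pkd2l1* was found in 24 nuclei (21.2%, pooled over libraries that differed in this share, as given below), against 0.427% of other neurons. Of these, 3 nuclei had 1 UMI, 4 had 2 and 17 had at least 3, up to 17 in a nucleus. In neurons outside the cluster, 2 nuclei had at least 3. *Pkd1l2* was found in 13 nuclei, and all 13 also had *Pkd2l1*. Of the 12 listed genes of cerebrospinal fluid-contacting neurons, 5 had no UMI in the 24 nuclei. The following division of the cluster was chosen after these values were seen, so every value set on it is a description with no test, and the genes named for it were likewise chosen after their values were seen. The 24 nuclei were shallower, with a median of 5344.5 UMIs against 10023 in the other 89. Lineage factors were present in both. *Tal1* stood at 51.8 CPM in the 24 nuclei pooled and 44.0 CPM in the 89, *Gata3* at 90.7 and 31.1 CPM, and *Gata2* at 64.8 and 8.59 CPM, and 17 of the 24 (70.8%) and 44 of the 89 (49.4%) had a UMI of at least 1 of the 3. *Nkx6-1*, a homeodomain factor of the ventral neural tube, was seen in 3 of the 24 and in 0 of the 89, which allows a share of up to 3.37% of nuclei with a UMI (3 counts of the total).
The transmitter genes differed in part. *Gad2* stood at 434 CPM in the 24 nuclei and 243 CPM in the 89, and *Slc32a1* at 58.3 and 55.8 CPM. *Slc6a5* was at 38.9 CPM with a UMI in 4 of 24 nuclei, against 153.6 CPM and 57 of 89. UMIs of *Slc6a5* together with *Gad1* or *Gad2* were thus seen in 16.7% of the 24 and 58.4% of the 89, and *Gad1* or *Gad2* alone in 75% and 32.6%. With every nucleus thinned to 2000 UMIs (23 of the 24 and all 89 were deep enough), a *Slc6a5* UMI remained in 7.67% and 23.8%, *Gad2* in 62.3% and 38.8%, and *Slc32a1* in 10.6% and 10.8%.

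**Figure D3:**
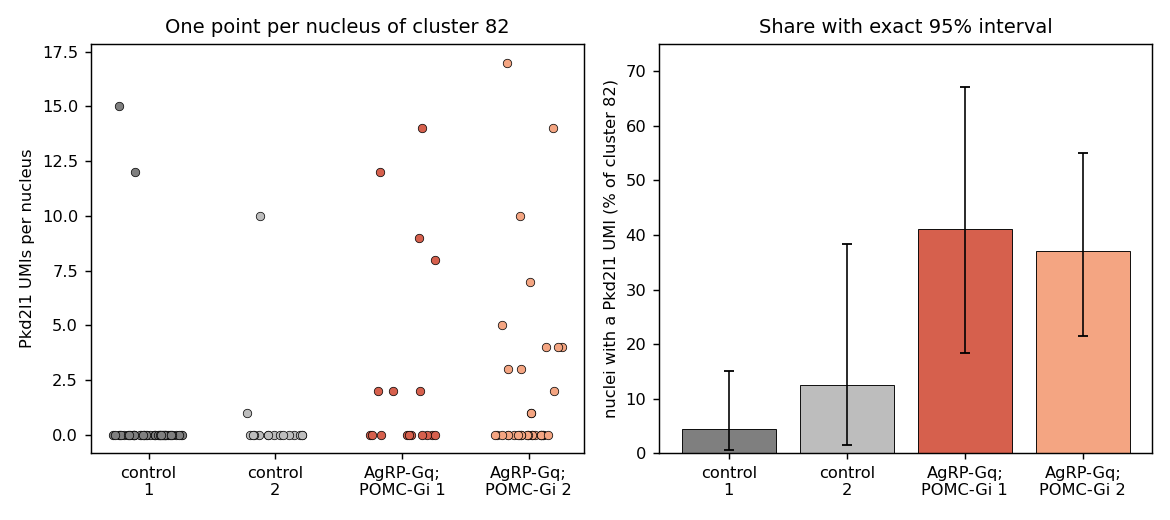
Left, *Pkd2l1* UMIs of each of the 113 nuclei by library; right, the percent of nuclei with at least 1 *Pkd2l1* UMI, with exact 95% intervals. Control libraries lie at 4.44% and 12.5%, both below the 41.2% and 37.1% of AgRP-Gq;POMC-Gi replicates 1 and 2.

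Many other genes followed the same division. Above the 89 nuclei stood *Espn* (240 against 4.3 CPM), *Pkhd1l1* (149 against 2.15 CPM), *Ddc*, the decarboxylase of monoamine synthesis (136 against 2.15 CPM), and *Ror1*, a Wnt receptor (292 against 10.7 CPM). *Ddc* was seen in 6 of the 24 nuclei, and 13 of its 21 UMIs came from 1 nucleus of control replicate 1, without which it stood at 53.7 CPM. *Sox2ot* stood at 1853 against 113 CPM, *Gm38505*, a noncoding gene inside *Sox2ot* on the opposite strand, at 953 against 46.2 CPM, and *Rnf220*, an E3 ubiquitin ligase, at 1153 against 73.0 CPM. *Sox2*, which lies within *Sox2ot*, stood at 51.8 against 4.3 CPM. *Kcnh7* stood at 3966 against 839 CPM and was above in every library, from 3365 to 4966 CPM in nuclei with *Pkd2l1* and from 628 to 1534 CPM in those without. *Nell1* was also higher, at 1115 against 547 CPM, while *Zfpm2* was at 985 against 1265 CPM. Below the 89 nuclei stood *Sgcz*, a sarcoglycan gene (240 against 3483 CPM), *Gpc5*, a glypican gene (285 against 2623 CPM), *Hs3st5* (19.4 against 368 CPM), *Nefm*, a neurofilament gene (6.48 against 103 CPM), and *Cdh23* (38.9 against 153.6 CPM). *Irx2* and *Sema5a* had 0 UMIs in the 24 nuclei and 41 and 170 UMIs in the 89.

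Several of these genes were also high in oligodendrocytes, where *Sox2ot* stood at 1475 CPM, *Rnf220* at 1838 CPM, *St18* at 4312 CPM and *Sox2* at 61.8 CPM. *Pkd2l1* itself stood at 63.8 CPM there, with a UMI in 13.1% of nuclei. *Pkd1l2* (0.262 CPM) and *Espn* (0.218 CPM) were near 0 in oligodendrocytes, and *St18* stood at 363 CPM in the 24 nuclei and 104 CPM in the 89. The 6 oligodendrocyte markers, all detected, summed to 251 to 909 CPM over the libraries in the 24 nuclei and to 103 to 252 CPM in the 89, against at least 12549 CPM in oligodendrocytes. Much of this lay in 2 shallow nuclei with 1 and 2 *Pkd2l1* UMIs, which held 24 of the 60 marker UMIs of the 24 nuclei. The former, of control replicate 2, had 14 in 1338 UMIs (10463 CPM, close to oligodendrocytes), and the latter, of AgRP-Gq;POMC-Gi replicate 2, had 10 in 2104 UMIs (4753 CPM). In the other 22 the markers summed to 239 CPM pooled, against 200 CPM in the 89, and *Sox2ot*, *Rnf220* and *Gm38505* stood at 1869, 1114 and 974 CPM in these 22. The vascular markers summed to 71.3 CPM in the 24 nuclei and 10.7 CPM in the 89, with 5 of 7 markers at 0 in the former. The ependymal and choroid markers, of which *Ttr* held 98 of 99 UMIs in the former and 279 of 281 in the latter, summed to 642 and 302 CPM, in the libraries where *Ttr* was also high in other neurons. Ependymal nuclei had *Sox2ot* at 368 CPM, *Rnf220* at 337 CPM, *Sox2* at 111 CPM, *Espn* at 24.7 CPM and *Pkd2l1* at 4.3 CPM. The part of other cell types in these levels was not tested beyond these values.

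**Figure D4:**
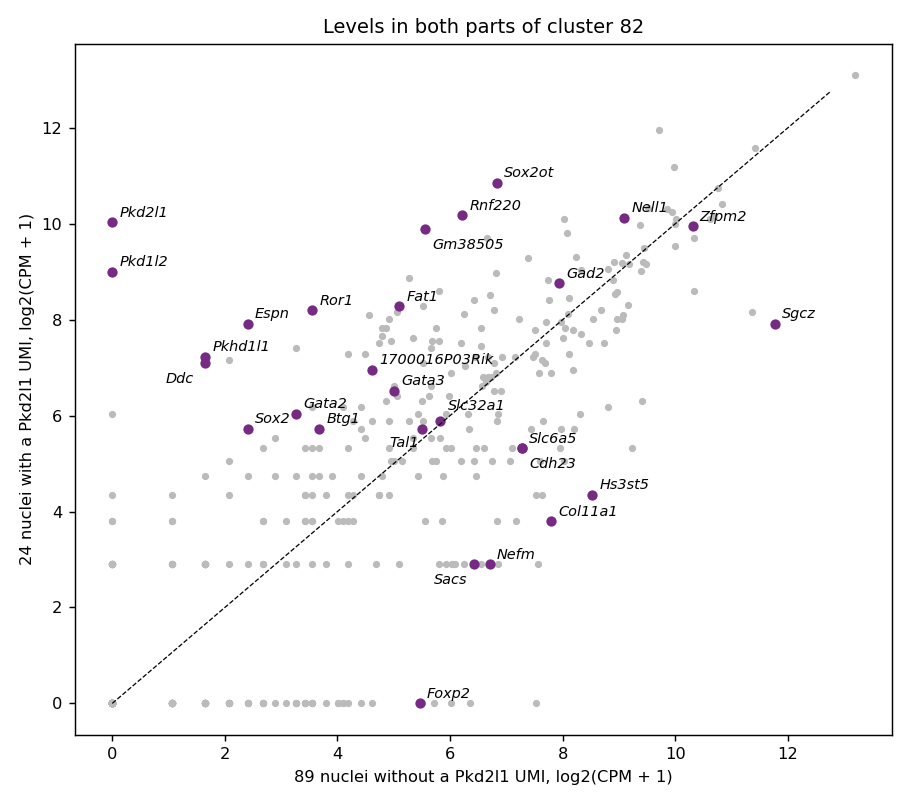
Pooled log2(CPM + 1) of listed and leading genes in the 24 nuclei with a *Pkd2l1* UMI (vertical) against the 89 without (horizontal), with the diagonal as equality and selected genes named. *Gata3*, *Tal1*, *Gad2* and *Slc32a1* lie near the diagonal or above it, *Pkd1l2* (0 in the 89), *Espn* and *Sox2ot* far above it, and *Slc6a5*, *Cdh23* and *Sgcz* below it.

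The share of these nuclei differed between the groups. They were 2 of 45 (4.44%, interval 0.543 to 15.1) in control replicate 1, 2 of 16 (12.5%, 1.55 to 38.3) in control replicate 2, 7 of 17 (41.2%, 18.4 to 67.1) in AgRP-Gq;POMC-Gi replicate 1 and 13 of 35 (37.1%, 21.5 to 55.1) in AgRP-Gq;POMC-Gi replicate 2. Both AgRP-Gq;POMC-Gi libraries thus lay above both control libraries, a difference of 30.7 percentage points. With at least 3 UMIs required, the shares were 4.44%, 6.25%, 23.5% and 28.6% (a difference of 20.7 points), and with at least 5 they were 4.44%, 6.25%, 23.5% and 14.3% (13.6 points), so the size of the difference depends on this choice. Depth and mitochondrial share moved with the group, as the median nucleus of the cluster had 9034 and 11749 UMIs in the control and 7850 and 7830 in the other libraries, and 0.107% and 0.116% against 0.153% and 0.137% mitochondrial UMIs. Thinned to 2000 UMIs, the shares were 4.41%, 4.26%, 32.4% and 30.3%. The part of RNA quality in this difference was not tested. As a share of all neurons, nuclei with *Pkd2l1* made up 0.081%, 0.0731%, 0.189% and 0.357%. Which nuclei each library captured and the group cannot be told apart in this design.

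Summed over the cluster, the groups were compared with the quasi-likelihood test of edgeR on the UMIs of 11997 genes, those seen in at least 5% of the nuclei. At an adjusted p of 0.05, 9 genes were called (0.075%), 8 of them higher in AgRP-Gq;POMC-Gi libraries and 1 lower, and 554 (4.62%) had an unadjusted p under 0.05. DESeq2 on the same sums called only *Pkd2l1* (DESeq2 adjusted p = 0.0468), with adjusted p of 0.0950 for *Zfp804b*, 0.753 for *Foxp2* and 0.9999 for the other 6, so 8 of the 9 calls rest on edgeR alone. *Pkd2l1* led. Summed over all nuclei, it stood at 61.6 and 57.7 CPM in the controls against 328 and 244 CPM after AgRP-Gq;POMC-Gi. This summed level was higher by 2.22 ± 0.30 (SE) on the log2 scale, with an edgeR adjusted p of 1.05e-05. The 27, 11, 49 and 75 *Pkd2l1* UMIs lay in 2, 2, 7 and 13 nuclei. The most in 1 nucleus were 15, 10, 14 and 17, so the groups overlapped in this. The summed level thus counts the same nuclei as their share above, and they are not separate results. Whether the level within nuclei with *Pkd2l1* differed was not tested. *Pkd1l2*, at 4.57 and 36.7 CPM against 254 and 104 CPM, rose by 3.45 ± 0.50 (SE). Few nuclei carried these counts. The *Pkd1l2* UMIs of each control library (2 and 7) lay in 1 nucleus, as did 21 of the 38 of AgRP-Gq;POMC-Gi replicate 1, and 10 of the 11 *Pkd2l1* UMIs of control replicate 2 lay in 1 nucleus. *Foxp2* had 25, 15, 0 and 0 UMIs, so that its 10 positive nuclei were all from control libraries. Its UMIs lay in 7, 3, 0 and 0 nuclei, with up to 7 in 1 nucleus. They are therefore not independent counts, and no limit on the fold is given. None of the 10 nuclei had a *Pkd2l1* UMI, and the control libraries held only 2 nuclei each with *Pkd2l1*. The noncoding *9630028H03Rik* rose by 1.89 on the log2 scale (21, 9, 24 and 57 UMIs), and *Zfp804b*, a zinc finger gene, by 1.32 (160, 68, 155 and 234 UMIs). *Zfhx3*, a zinc finger homeobox factor, rose by 1.34 (49, 21, 29 and 104 UMIs). The most *Zfhx3* UMIs in 1 nucleus were 7, 8, 17 and 33, so 17 of the 29 of AgRP-Gq;POMC-Gi replicate 1 lay in 1 nucleus. The same counts were 35, 12, 43 and 42 for *Zfp804b* and 3, 3, 7 and 12 for *9630028H03Rik*. *Rnf220*, *Gm38505* and *Sox2ot* rose by 1.47, 1.39 and 1.23. With each library left out in turn, edgeR kept the calls of *Pkd2l1* and *Foxp2*. Without control replicate 1 it lost those of *Pkd1l2* (2.15, edgeR adjusted p = 0.0523), *Rnf220* (1.24) and *9630028H03Rik* (1.90), and without control replicate 2 those of *Sox2ot* (0.97) and *Zfp804b* (1.30). *Gm38505* and *Zfhx3* lost theirs without either control library (1.60 and 1.27, 1.34 and 1.31) and without AgRP-Gq;POMC-Gi replicate 2 (1.29 and 0.83). For *Pkd1l2* the values ranged from 2.15 to 5.05. With the stricter filter of filterByExpr, edgeR called 7 genes, without *Sox2ot* (edgeR adjusted p = 0.100) and *Zfhx3* (0.0879). For scale, both AgRP-Gq;POMC-Gi libraries were above both control libraries in 15.2% of the genes tested and below in 18.3%. Of 5 tested genes of cerebrospinal fluid-contacting neurons, 4 were above without overlap and 2 were called, *Pkd2l1* and *Pkd1l2*, which the lists were chosen with in view. *Pkd1l2*, in 1, 1, 4 and 7 nuclei, passed the 5% filter mainly through AgRP-Gq;POMC-Gi nuclei, and all of its nuclei had *Pkd2l1*. These genes are thus not separate results, and their count beside the share of all genes says nothing about the list.

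The called genes fell into those that followed the 24 nuclei and those that did not. All UMIs of *Pkd2l1* and *Pkd1l2*, and 72.4%, 77.4% and 73.1% of those of *Rnf220*, *Gm38505* and *Sox2ot*, came from nuclei with *Pkd2l1*, against 15.3%, 16.2% and 16.7% for *9630028H03Rik*, *Zfp804b* and *Zfhx3*. Log2 fold changes over only the 89 other nuclei, an alternative chosen after seeing the data, are given as values with no test, since leaving out nuclei by *Pkd2l1*, itself called between the groups, removes a larger share of the AgRP-Gq;POMC-Gi nuclei. *9630028H03Rik*, *Zfhx3* and *Zfp804b* were at 1.98, 1.60 and 1.36. *Rnf220* was at -0.046, and *Sox2ot* and *Gm38505* were at -3.33 and -6.96. Outside the 24 nuclei, all 43 *Gm38505* UMIs and 78 of the 105 *Sox2ot* UMIs came from the same 4 nuclei of control replicate 1, so the fitted value of *Gm38505* depends on the prior count and gives no size.

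The group difference in cluster 82 was also compared with that in other neurons of the same libraries, which asks whether a change was particular to the cluster. For this interaction, edgeR called 11 genes of 11997 (0.0917%), 8 with a more positive and 3 with a more negative difference in cluster 82, and 594 (4.95%) had an unadjusted p under 0.05. The difference of log2 fold changes was 3.54 for *Pkd2l1* (standard error 0.61), 3.51 for *Pkd1l2*, 2.59 for *Gm38505* and 2.28 for *Sox2ot*. In other neurons *Pkd2l1*, *Gm38505* and *Sox2ot* had log2 fold changes of -1.39, -1.13 and -1.0. Their levels there were low, with *Pkd2l1* at 0.254 to 1.03 CPM. *Pkd2l1* and *Sox2ot* are also found in oligodendrocytes, whose summed markers in other neurons were lower in both AgRP-Gq;POMC-Gi libraries (151 and 195 against 304 and 259 CPM), and the part of this in the differences was not tested. *Zfhx3* and *Zfp804b* were called with 1.33 and 1.23 and were at 0.03 and 0.09 in other neurons. Called here but not within the cluster alone were *Ptprz1*, a receptor phosphatase (39, 22, 4 and 7 UMIs, difference -2.05), *Nfia*, a nuclear factor I gene (1.29), and *Hs3st4* (-1.14). Standard errors of these differences (0.445, 0.275 and 0.266) were below those within the cluster (0.454, 0.283 and 0.269), although other neurons add spread. The fit shares an estimate of spread per gene between the small sums of the cluster and the large sums of other neurons. The p-values of this interaction may thus be too small. Of the *Nfia* UMIs, 42.5% came from the 24 nuclei with *Pkd2l1*, and its log2 fold change in the cluster was 1.21 over all nuclei and 0.35 over the other 89. For this interaction DESeq2 called *Pkd2l1*, *Pkd1l2*, *Gm38505*, *Sox2ot* and *Zfp804b* and none of the other 6. With a library left out, *Sox2ot* alone of the 11 was called each time. The others called were *Pkd2l1* and *Foxp2* without control replicate 1, and *Pkd1l2* and *Gm38505* without control replicate 2. Without AgRP-Gq;POMC-Gi replicate 1, *Pkd1l2*, *Nfia* and *Ptprz1* lost the call, and without AgRP-Gq;POMC-Gi replicate 2 *Pkd2l1*, *Pkd1l2*, *Gm38505* and *Zfp804b* kept it. Without TMM factors *Foxp2*, *Zfhx3*, *Ptprz1* and *Hs3st4* were not called, and with filterByExpr only *Sox2ot*, *9630028H03Rik*, *Nfia*, *Ptprz1* and *Zfp804b* were. *Rnf220* was not called against all other neurons (1.04, standard error 0.26, edgeR adjusted p = 0.117). A further reference was the 4820 nuclei of the other clusters with *Slc32a1* at least 4-fold above *Slc17a6*, termed GABAergic here. Against these, edgeR called 10 genes, 9 of them among the 11, so the calls depend in part on the reference.

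**Figure D5:**
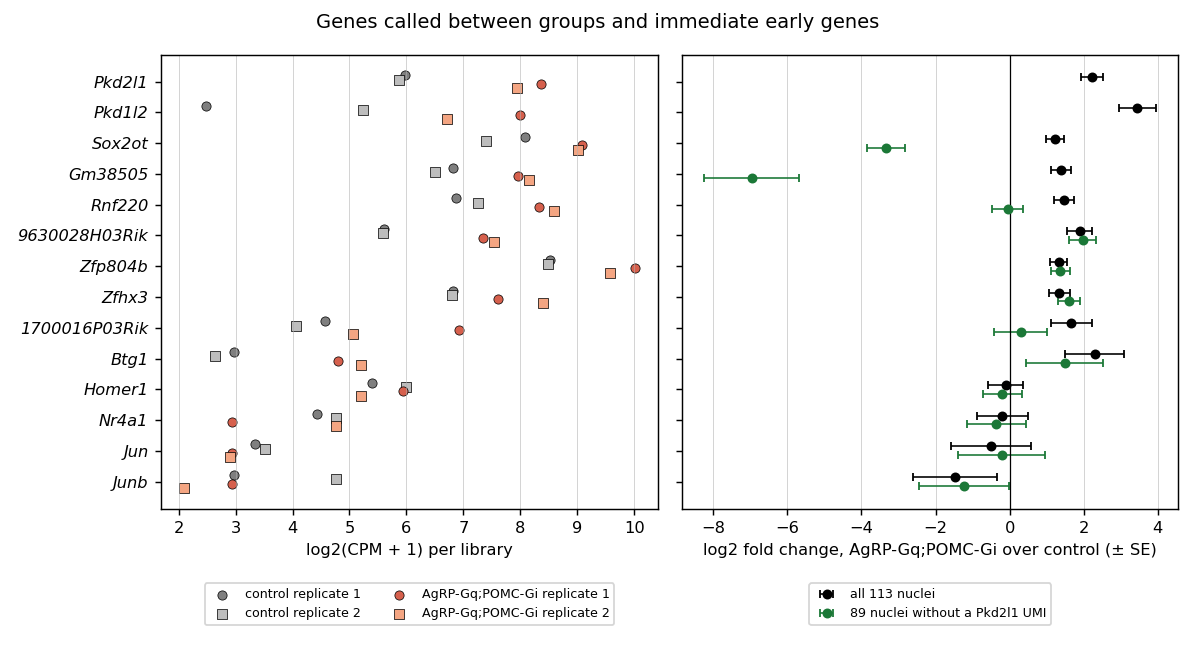
Left, log2(CPM + 1) in each library for genes called between the groups and for immediate early genes; right, log2 fold change ± standard error from edgeR over all 113 nuclei (black) and over the 89 nuclei without a *Pkd2l1* UMI (green). *9630028H03Rik*, *Zfp804b* and *Zfhx3* are above 1 in both, *Rnf220* is at -0.046 and *Sox2ot* and *Gm38505* are below 0 in the 89.

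Immediate early genes, which neurons transcribe soon after activation, were sparse. Of the 10 that the study used, 7 were tested in the cluster, 0 were called by edgeR, and 2 had an unadjusted p under 0.05, *1700016P03Rik* and *Btg1*, beside 4.62% of all genes tested. The 24 nuclei with *Pkd2l1* held 19 of the 41 *1700016P03Rik* UMIs (46.3%) and 42.1% of the *Btg1* UMIs, at 123 and 51.8 CPM against 23.6 and 11.8 CPM in the other 89. For *1700016P03Rik*, 13 of the 18 UMIs of AgRP-Gq;POMC-Gi replicate 1 came from 1 of these 24 nuclei, which had 2 *Pkd2l1* UMIs, and the other 23 held 6 UMIs (41.3 CPM). With a library left out, its log2 fold change ranged from 0.65 without that library to 2.56 without AgRP-Gq;POMC-Gi replicate 2, where it was called (edgeR adjusted p = 0.00895). Over the 89 nuclei the log2 fold change of *1700016P03Rik* was 0.29 (standard error 0.71), against 1.66 (standard error 0.55) over all 113, and that of *Btg1* was 1.49 (standard error 1.04) against 2.29 (standard error 0.79). The others were at -0.11 (*Homer1*), -0.20 (*Nr4a1*), 1.20 (*Gem*), -0.50 (*Jun*) and -1.48 (*Junb*), with standard errors of 0.47 to 1.15. *Homer1*, with 18, 12, 9 and 11 UMIs, had the most counts and overlapping groups. *Fos* had 1 UMI in the cluster, *Egr1* 2 and *Arc* 3, so no difference in these was detectable at this depth. Of 29 other activity genes 9 were tested and 0 called, with *Dusp1* (6, 2, 0 and 0 UMIs) and *Inhba* (24, 9, 4 and 6 UMIs) lower at an unadjusted p under 0.05.

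Of 15 tested genes of the Tal1 and Gata lineage list 0 were called, of 9 for GABA and glycine transmission 0, of 17 receptor genes for both transmitters 0, of 23 glutamate receptor genes 0 and of 40 ion channel genes 0, where 0.075% of all genes were called, so that lists of this size would hold few calls in any case. Of the 17 receptor genes, 5 had an unadjusted p under 0.05, beside 4.62% of all genes. *Gabrb2* (-1.08) and *Gabra5* (-0.79), subunits of GABA-A receptors, were lower, and *Glra2*, a glycine receptor subunit (1.30), *Gabrg1* (1.58) and *Gabra3* (0.62) were higher on the log2 scale, none of them past the adjusted threshold. The median log2 fold change was 0.12 in the lineage list and 0.04 in the transmission list, against 0.0009 over all genes tested. *Tal1* itself stood at 45.7, 42.0, 40.2 and 48.8 CPM, so the groups overlapped.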

How the data were processed

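Nuclei of the posterior hindbrain were sorted, and the authors prepared 3′ libraries with the 10x Genomics Chromium kit, 2 per group. The deposited matrices hold counts of UMIs per gene and nucleus, mapped by the authors to GRCm38 (mm10) with Cell Ranger 7.0.0, per the labels and the submitters' processing notes, which also name Seurat 4.3.0. The deposited table of nuclei gives UMI counts, the percent of mitochondrial UMIs, the authors' filter, the cluster and the cell type, all taken as deposited, and holds immediate early gene scores of the authors' own comparison, which were not used. The Methods state Louvain clusters on an scVI embedding built without immediate early genes and a doublet caller with a set rate. No doublet caller was run here.

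UMIs were summed per library over the nuclei of cluster 82 and over all other neurons. Groups were compared with the quasi-likelihood test of edgeR 4.0.16 (TMM factors, genes detected in 5% or more of the nuclei, Benjamini-Hochberg adjustment) in R 4.3.3, and differences from other neurons with an interaction term. The study fitted mixed models over nuclei. Here sums per library were tested, so that nuclei were not counted as replicates. Alternatives were sums without TMM factors, DESeq2 1.42.0, other filters, a block for the replicate number, and leaving out 1 library at a time. A negative binomial mixed model in glmmTMB 1.1.9 was fitted for the 7 immediate early genes. For the interaction, neurons of the other GABAergic clusters also served as reference. Shares were compared with exact permutation tests and given exact 95% intervals (Clopper-Pearson, scipy 1.17.1, Python 3.11.15), which cover counting error only, as do limits from a count of 0. Cluster sums held 149392 to 437965 UMIs per library.

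Named were the genes of the lists, the 20 highest and 10 lowest ratios to other neurons, the 10 smallest p-values between groups, called genes and the 10 genes most uneven between libraries. For the division by *Pkd2l1*, genes were also named from among the highest and lowest in nuclei with a *Pkd2l1* UMI, and *Sox2* beside *Sox2ot*. That ranking was chosen after the values were seen. Members and lists were chosen with earlier results of these data known, so list counts are descriptions. Promoter sequences are from RefSeq (GRCm38.p6), and positions from the gene annotation of GRCm38.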

Additional observations from a re-analysis of the deposited data

Results flagged for a closer look

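In 11 genes the difference between AgRP-Gq;POMC-Gi and control libraries was not the same in cluster 82 as in the other neurons of the same libraries, by the interaction term of edgeR at an adjusted p of 0.05. As stated above, the p-values of this term may be too small. As differences of log2 fold changes, these were 3.54 for *Pkd2l1*, 3.51 for *Pkd1l2*, 2.59 for *Gm38505*, 2.28 for *Sox2ot*, 1.56 for *9630028H03Rik*, 1.33 for *Zfhx3*, 1.29 for *Nfia* and 1.23 for *Zfp804b*, and -1.14 for *Hs3st4*, -2.05 for *Ptprz1* and -12.15 for *Foxp2*. The value of *Foxp2* is set by 0 UMIs in both AgRP-Gq;POMC-Gi libraries of the cluster and is no measure of size.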

How the results depend on the processing

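Between the groups in cluster 82, edgeR called 9 genes, DESeq2 1 (*Pkd2l1*) and edgeR with the replicate block 18, all 9 among them. Deviations of same-numbered libraries correlated with 0.028 over the sums of the cluster. These sums are sparse, so the value cannot decide whether same-numbered libraries share a step. The ependymal and choroid markers in other neurons did follow the number. They summed to 6.81 and 12.2 CPM in control and AgRP-Gq;POMC-Gi replicates 1 and to 1012 and 587 CPM in replicates 2. The labels do not say whether same-numbered libraries were handled together. With a library left out, the spread of a lone library is assumed to be like that of the others, and 6 to 29 genes were called; without AgRP-Gq;POMC-Gi replicate 2 it was 29, 7 of them shared. For the difference from other neurons, edgeR called 11 genes, without TMM factors 7, with filterByExpr 5, with DESeq2 5 and with a library left out 3 to 12 (3 without control replicate 2 and 6 without control replicate 1). Against only neurons of the other GABAergic clusters edgeR called 10 genes, 9 of them shared. Over the 89 nuclei without a *Pkd2l1* UMI the number was 7, which is no test, since that choice of nuclei rests on a gene called between the groups. The genes at least 4-fold above other neurons numbered 17, and 40 with detection in 10% of nuclei (15 to 21 with a library left out). The share difference of -0.49 points ranged from -1.11 to 0.126 with a library left out and was 0.126 without control replicate 1. The *Pkd2l1* share difference of 30.7 points ranged from 26.7 to 34.7 and was 20.7 with at least 3 UMIs, 13.6 with at least 5 and 27.0 thinned to 2000 UMIs.

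Over log2 fold changes of named genes, 156 values kept direction and call, 21 lost and 8 gained the call, and 4 turned. The 156 include genes that were called in neither fit. They also include values of the mixed model, which gave no adjusted p and kept direction only. Values over the 89 nuclei were left aside. Over those, again with no test, the values that turned were *Sox2ot* (-3.33), *Gm38505* (-6.96), *Rnf220* (-0.046) and *Gem* (-3.37). With a library left out, *Gem* ranged from -0.49 to 4.35 and *Nr4a1* from -1.64 to 0.21, both turning without AgRP-Gq;POMC-Gi replicate 1. *Homer1* ranged from -0.47 to 0.34 and turned when either replicate 2 was left out (0.12 without that of the control). The cause was not tested. The mixed model over nuclei, with the library as a random effect, gave 1.84 (unadjusted p = 0.0137) for *1700016P03Rik* and 2.54 (unadjusted p = 0.00581) for *Btg1*. The study picked the cluster by a score that includes both genes, so these p-values are not independent of that choice. Counts of under 20 UMIs in the cluster limit *Gata2*, *Btg1* and most immediate early genes.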

Other observations

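Among the 10 genes most uneven between libraries of cluster 82 were 7 not called between the groups with all libraries, of which *Ttr* and *Ptprz1* are described above. *Sox5* had 16, 4, 26 and 11 UMIs, *Zdbf2* 28, 8, 27 and 9, and *Pappa* 19, 8, 24 and 12, each highest per UMI in AgRP-Gq;POMC-Gi replicate 1 (174, 181 and 161 CPM). *Msra* had 39, 4, 2 and 10 UMIs and was highest in control replicate 1 (89 CPM), and *Dach2* had 24, 4, 2 and 32 UMIs and was highest in AgRP-Gq;POMC-Gi replicate 2 (104 CPM). The 9 nuclei with a *Sox14* UMI, nearly all of control replicate 1, held neither *Pkd2l1* nor *Foxp2*. In that library only 2 of 45 nuclei had *Pkd2l1* and 7 had *Foxp2*, so little overlap would be seen in any case. Of the 10 nuclei with *Foxp2*, 5 had a UMI of *Tal1*, *Gata2* or *Gata3*.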
